A study of Rattus norvegicus with 24 samples.

Results

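The cell proliferation genes described here are 5 genes of the cell cycle, picked by their Ensembl IDs out of 23098 IDs in the count table. They are Ccnd1 (ENSRNOG00000020918), Pcna (ENSRNOG00000021264), Mki67 (ENSRNOG00000028137), Top2a (ENSRNOG00000053047) and Cdk1 (ENSRNOG00000000632). The symbols come with that list of IDs, since the table itself gives none. Each ID stood on 1 line, and all 5 were among the 15065 genes with enough counts to be tested. RNA was measured in the left ventricle (free wall, mid-ventricular level) of male Wistar rats in 24 libraries. The sham group (SHAM) had its dura opened at a high thoracic level with the cord left intact, and tissue was taken 7 days after surgery. The other groups had a complete transection of the cord at that level (spinal cord injury, SCI), with tissue taken after 1 day (1D), 3 days (3D) or 12 weeks (12W). Each group held 6 libraries. No group of uninjured rats was collected at 1 day, 3 days or 12 weeks, so for each SCI group the injury and the time since surgery cannot be told apart.

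A dividing cell passes through a fixed order of steps, and each of these genes serves a different one. Ccnd1 encodes cyclin D1, which activates the kinases CDK4 and CDK6 when growth signals call a resting cell into the cycle. Pcna encodes the sliding clamp that holds DNA polymerase on its template, and it serves DNA repair as well as replication. Mki67 encodes Ki-67, a coat of mitotic chromosomes widely used as a stain for cycling cells. Top2a encodes the topoisomerase that untangles sister chromosomes, and Cdk1 the kinase that drives entry into mitosis. Adult heart muscle cells rarely divide, and much of the cycling in adult heart tissue is ascribed to other cells, such as endothelial cells, fibroblasts and leukocytes. In whole tissue, fewer cells that express a gene and less of its RNA per cell cannot be told apart.

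The 5 genes did not move as a block. Ccnd1 was lower than sham at 1 day and much lower at 12 weeks, Pcna was lower than sham at 1 and 3 days and was not called at 12 weeks, and Mki67, Top2a and Cdk1 passed no test between any groups. Levels are given in CPM, the counts scaled to a common library size and not by gene length, so they are compared between groups but not between genes. A gene was called when its adjusted p was under 0.05 in edgeR's quasi-likelihood test. At 1 day 2 of the 5 genes were lower than sham and 0 higher, where 12.1% of all tested genes were lower and 11.9% higher. At 3 days 1 was lower and 0 higher, where 8.59% of tested genes were lower and 8.88% higher. At 12 weeks 1 was lower and 0 higher, where 10.9% of tested genes were lower and 11.3% higher.

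**Figure D1:**
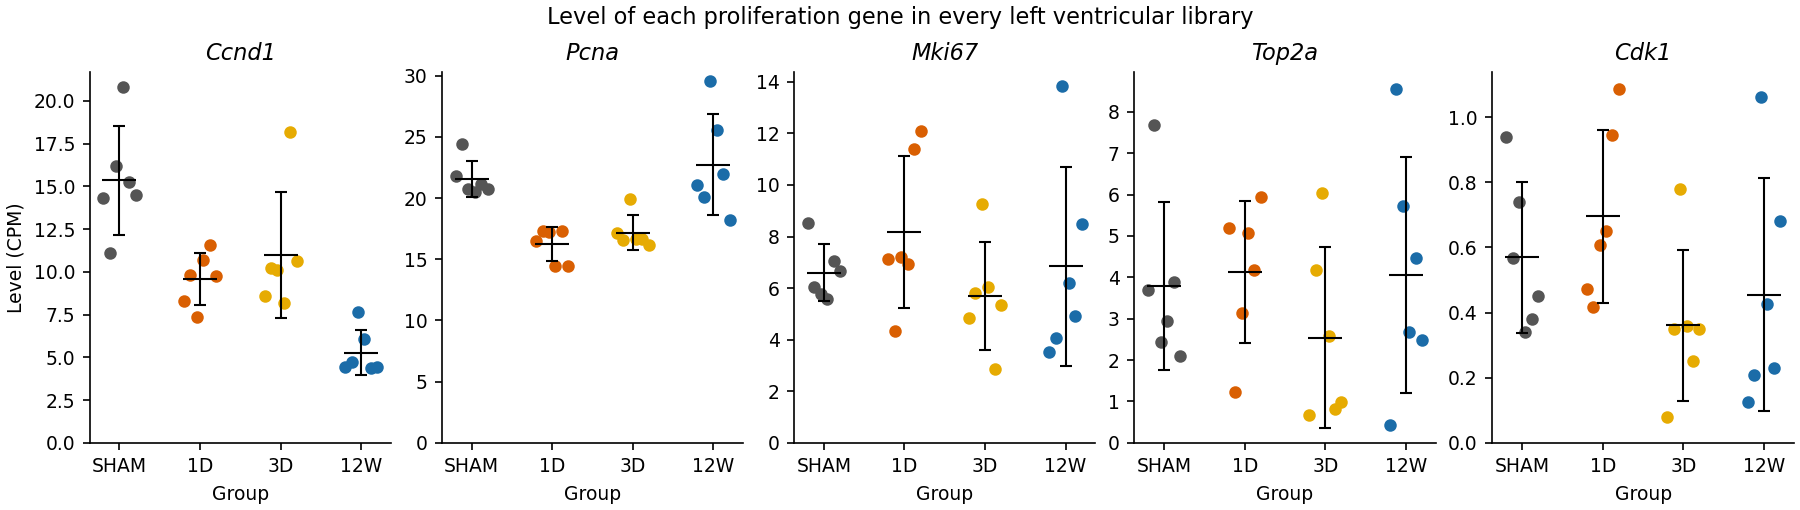
Level in CPM (vertical axis, from 0) of each gene in every library, by group (horizontal axis, 6 libraries each); the horizontal mark is the group mean and the bar 1 SD. Ccnd1 at 12 weeks lies between 4.38 and 7.63 CPM, under every sham library, while Mki67, Top2a and Cdk1 overlap in all groups.

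Depth ran from 15002476 counts in 12W replicate 1 to 70340174 in SHAM replicate 1. The libraries 3D replicate 5, 12W replicate 1 and 12W replicate 3 were the least like the others of their group, with a mean correlation over tested genes of 0.971, 0.973 and 0.968. The tests between groups were also run without them, together and each in turn. Levels, spreads and correlations within single groups are given only with them. Libraries were numbered 57 to 68 in the SHAM and 3D groups and 77 to 88 in the 1D and 12W groups. The labels do not say what these numbers mark. The comparisons of 3D with SHAM and of 12W with 1D therefore lie within 1 range of numbers, and for the others the group and the range cannot be told apart.

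Ccnd1, whose product starts the cycle, was the member with the largest difference. In sham its level ran from 11.1 to 20.8 CPM with a median of 14.9 CPM. At 1 day it ran from 7.36 to 11.6 CPM with a median of 9.78 CPM. At 3 days it ran from 8.19 to 18.2 CPM with a median of 10.2 CPM, and at 12 weeks from 4.38 to 7.63 CPM with a median of 4.57 CPM. All 6 libraries of the 12 week group lay below every sham library and below every 3 day library. At 1 day 5 of 6 lay below every sham library, and at 3 days also 5 of 6, the exception being 3D replicate 5 with 18.2 CPM.

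The mean level of Ccnd1 was 15.4 ± 3.18 CPM in sham (SD, n = 6) and 9.59 ± 1.54 CPM at 1 day. The 1 day level was 1.60-fold below sham (log2 fold change -0.68, SE 0.17, edgeR adjusted p = 0.00613). At 12 weeks the mean was 5.27 ± 1.32 CPM, 2.91-fold below sham (log2 fold change -1.54, SE 0.18, edgeR adjusted p = 4.4e-06). By p-value this was place 34 among the 15065 genes tested, and only 0.624% of tested genes had a lower log2 fold change at 12 weeks. The 12 week difference lay between -1.67 and -1.43 on the log2 scale when any 1 library was left out.

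At 3 days the mean of Ccnd1 was 10.99 ± 3.66 CPM, and the log2 fold change against sham of -0.50 (SE 0.18, 95% interval -0.86 to -0.13) just missed the threshold (edgeR adjusted p = 0.0519). Without 3D replicate 5 it was -0.68 and was called (edgeR adjusted p = 0.00385), and without the 3 least similar libraries together it was also -0.68 (adjusted p = 0.00122). The gene was called as well by DESeq2 (adjusted p = 0.0341) and by limma-voom with sample quality weights (adjusted p = 0.00191). These weights count libraries that vary more for less. With a filter of at least 1 CPM in at least 6 libraries it was also called (edgeR adjusted p = 0.0498). The same held without SHAM replicate 2 (edgeR adjusted p = 0.0339) and without 12W replicate 3 (edgeR adjusted p = 0.0303). Over all its alternatives the 3 day log2 fold change stayed below 0.

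The direct comparisons among SCI groups placed Ccnd1 lower at 12 weeks than at either early time. Against 1 day, within 1 range of library numbers, the log2 fold change was -0.86 (SE 0.18, edgeR adjusted p = 0.000793), where 16.1% of tested genes were lower. Against 3 days it was -1.04 (SE 0.18, edgeR adjusted p = 0.000155), where 15.3% were lower. Between 3 days and 1 day it was 0.18 (95% interval -0.18 to 0.54, edgeR adjusted p = 0.657), and -0.01 without 3D replicate 5. In order of mean level Ccnd1 thus stood highest in sham, then at 3 days, 1 day and 12 weeks, with the neighbours sham and 3 days, and 3 days and 1 day, not separated by the test.

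**Figure D2:**
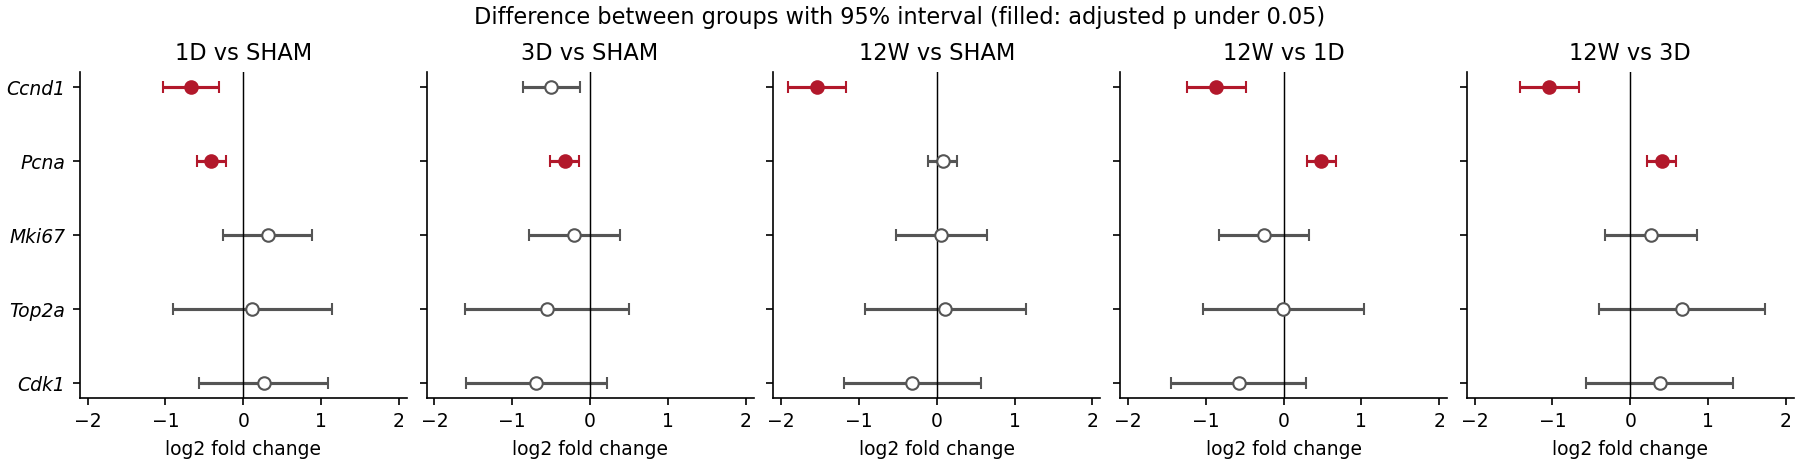
Log2 fold change of each gene (horizontal axis) in 5 comparisons with its 95% interval; filled points have an edgeR adjusted p under 0.05. Ccnd1 lies left of 0 in each, by -1.54 for 12W against SHAM, while Pcna lies left of 0 at the early times and right of 0 in 12W against 1D and against 3D.

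Pcna, the replication clamp, was lower than sham at both early times and was not called against sham at 12 weeks. In sham its level ran from 20.5 to 24.4 CPM with a median of 20.9 CPM. At 1 day it ran from 14.5 to 17.3 CPM with a median of 16.9 CPM, and at 3 days from 16.1 to 20.0 CPM with a median of 16.6 CPM. All 6 libraries at 1 day and all 6 at 3 days lay below every sham library. At 12 weeks the range was wider, from 18.2 to 29.5 CPM with a median of 21.5 CPM, and 2 libraries lay above and 2 below all sham libraries.

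The mean level of Pcna was 21.5 ± 1.48 CPM in sham (SD, n = 6), 16.2 ± 1.39 CPM at 1 day and 17.2 ± 1.40 CPM at 3 days. The level was 1.33-fold below sham at 1 day (log2 fold change -0.41, SE 0.09, edgeR adjusted p = 0.00194) and 1.25-fold below sham at 3 days (log2 fold change -0.33, SE 0.09, edgeR adjusted p = 0.0148). The 3 day comparison lies within 1 range of library numbers. At 12 weeks the mean was 22.7 ± 4.12 CPM, with a log2 fold change of 0.08 (95% interval -0.11 to 0.26, edgeR adjusted p = 0.594). This interval holds no change of the size seen at 1 or 3 days. Without 12W replicate 3, the library at 29.5 CPM, the 12 week value was -0.01.

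Pcna was also higher at 12 weeks than at either early time. Against 1 day the log2 fold change was 0.49 (SE 0.09, edgeR adjusted p = 0.000267), where 17.8% of tested genes were higher, and all 6 libraries lay above every 1 day library. Against 3 days it was 0.40 (SE 0.09, edgeR adjusted p = 0.00175), where 16% of tested genes were higher, with 5 of 6 libraries above every 3 day library. Between 3 days and 1 day the difference was 0.08 (95% interval -0.11 to 0.27, edgeR adjusted p = 0.70). At 12 weeks Pcna and Ccnd1 therefore differed from the early SCI groups in opposite directions.

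Mki67, the marker of cycling cells, ran from 5.56 to 8.52 CPM in sham with a median of 6.34 CPM. At 1 day it ran from 4.33 to 12.1 CPM with a median of 7.17 CPM, and at 3 days from 2.87 to 9.25 CPM with a median of 5.57 CPM. At 12 weeks it ran from 3.54 to 13.8 CPM with a median of 5.56 CPM. The groups overlapped, and 1D replicates 5 and 6 and 12W replicate 3 stood highest, each above 11 CPM. The coefficient of variation of Mki67 was 16.6% in sham against 36.2%, 36.5% and 56.3% in the SCI groups in order of time. For Top2a it was 53.5% in sham against 41.6%, 85.7% and 70.2%. For Cdk1 it was 40.6% against 38.2%, 64.0% and 78.5%, so in both the 1 day value was below that of sham. These differences in spread were not tested. The log2 fold change of Mki67 against sham was 0.31 at 1 day (95% interval -0.26 to 0.89, edgeR adjusted p = 0.446). It was -0.20 at 3 days (-0.79 to 0.38, edgeR adjusted p = 0.679) and 0.06 at 12 weeks (-0.52 to 0.64, edgeR adjusted p = 0.906). A change of 2-fold in either direction, which is 1 on the log2 scale, lies outside all 3 of these intervals.

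Top2a, the chromosome untangling enzyme, had the highest fitted spread between replicates of the 5 genes. It ran from 2.11 to 7.68 CPM in sham (median 3.31 CPM), from 1.22 to 5.94 CPM at 1 day (median 4.63 CPM), from 0.68 to 6.04 CPM at 3 days (median 1.78 CPM) and from 0.442 to 8.55 CPM at 12 weeks (median 3.57 CPM). The highest 12 week library held 19.3 times the level of the lowest, 12W replicate 1, in which the gene had 7 counts. Its biological coefficient of variation, the spread between replicates beyond counting error, was 0.617, at the 98.7th percentile of the tested genes. The other values were 0.461 for Cdk1, 0.339 for Mki67, 0.211 for Ccnd1 and 0.113 for Pcna. The log2 fold changes of Top2a against sham were 0.11 at 1 day (95% interval -0.90 to 1.13), -0.55 at 3 days (-1.61 to 0.50) and 0.11 at 12 weeks (-0.92 to 1.14), with edgeR adjusted p-values of 0.895, 0.501 and 0.901. A 2-fold higher level at 1 day or 12 weeks and a 2-fold lower level at 3 days lie inside these intervals, so such changes are not excluded for Top2a.

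Cdk1, the mitotic kinase, had the fewest counts of the 5 genes, from 2 in 12W replicate 1 to 67 in SHAM replicate 1. Its level ran from 0.34 to 0.939 CPM in sham (median 0.509 CPM), from 0.416 to 1.09 CPM at 1 day (median 0.628 CPM), from 0.0785 to 0.779 CPM at 3 days (median 0.349 CPM) and from 0.126 to 1.06 CPM at 12 weeks (median 0.328 CPM). At 3 days 5 of 6 libraries lay below every 1 day library, and the log2 fold change between these groups was -0.95 (SE 0.43, 95% interval -1.84 to -0.06). Its unadjusted p of 0.0376 became 0.244 after adjustment over all tested genes (edgeR). Against sham the log2 fold changes were 0.26 at 1 day (95% interval -0.57 to 1.09), -0.69 at 3 days (-1.60 to 0.21) and -0.32 at 12 weeks (-1.20 to 0.56). The edgeR adjusted p-values were 0.678, 0.301 and 0.642 in that order. A 2-fold higher level at 1 day and a 2-fold lower level at 3 days or 12 weeks lie inside these intervals. Such changes are therefore not excluded for Cdk1.

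Across Mki67, Top2a and Cdk1, edgeR called 0 of the 18 values from 6 comparisons, as did DESeq2 and limma-voom, and the 3 day to 1 day difference of Cdk1 was the 1 value with an unadjusted p under 0.05. That comparison called 0 of the 5 genes, where 2.74% of all tested genes were called. In the other comparisons 8.59% to 17.8% of tested genes were called in each direction. The fitted spread between replicates of Mki67, Top2a and Cdk1 lay at the 88.3th, 98.7th and 95.7th percentile of tested genes. At 3 days all 5 genes had a negative log2 fold change against sham, with a median of -0.50 where the median of all tested genes was 0.01. Of these 5 values only that of Pcna was called, and the medians were 0.11 at 1 day and 0.06 at 12 weeks.

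**Figure D3:**
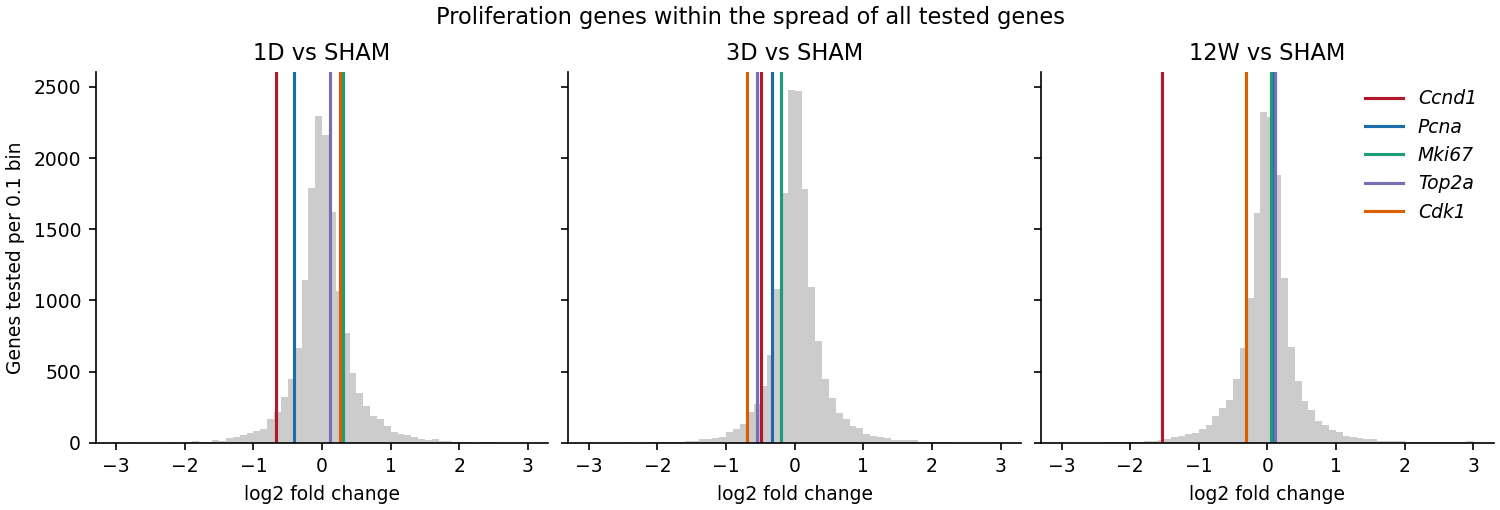
Number of tested genes (vertical axis) by log2 fold change against SHAM (horizontal axis, bins of 0.1; genes beyond 3 in either direction are in the end bins), with a line for each proliferation gene. At 12 weeks Ccnd1 stands in the lower tail, where 0.624% of tested genes are lower, and the other 4 lines lie within the bulk. At 1 day 4.52% of tested genes are lower than Ccnd1. At 3 days 3.45% are lower than Cdk1, 5.45% lower than Top2a and 6.66% lower than Ccnd1.

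Within groups, libraries high in Mki67 were also high in Cdk1. The deviations of log2 CPM from the group mean correlated over the 24 libraries with a Pearson r of 0.806 (permutation within groups, p = 0.00014, adjusted over 10 gene pairs p = 0.0014) and a Spearman rho of 0.805 (permutation p = 8e-05, adjusted p = 0.0008). Without the pair of libraries farthest from the median of Mki67, 12W replicate 3 and 3D replicate 3, r was 0.689 (permutation p = 0.0021, adjusted p = 0.021). The correlation was 0.476 in sham, 0.936 at 1 day, 0.61 at 3 days and 0.985 at 12 weeks, each over 6 libraries. The pair therefore rose and fell together from library to library although neither gene differed between groups by test.

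Top2a went with both less closely. Its r was 0.545 with Mki67 (permutation p = 0.0236, adjusted p = 0.0917) and 0.533 with Cdk1 (permutation p = 0.0275, adjusted p = 0.0917), neither of which passed. Spearman's rho was 0.437 (permutation p = 0.0558) and 0.372 (permutation p = 0.112) in that order. Without the pair of libraries farthest on the first gene r was 0.435 with Mki67 and 0.356 with Cdk1. In 12W replicate 2 Top2a was the highest of its group at 8.55 CPM while Mki67 was next to lowest at 4.08 CPM, and without that library r was 0.696 (permutation adjusted p = 0.00915) and 0.66 (permutation adjusted p = 0.0111).

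No pair with Ccnd1 or Pcna passed the test over the 24 libraries. Of the 7 pairs that involve them, r lay between -0.08 and 0.341 and the permutation adjusted p between 0.496 and 0.822. Within single groups of 6 libraries, not tested one by one, r differed in sign and was at times large. For Pcna and Ccnd1 it was -0.837 in sham and 0.918 at 12 weeks, for Top2a and Pcna 0.927 in sham and -0.624 at 1 day, and for Mki67 and Ccnd1 -0.692 at 3 days and 0.744 at 12 weeks. Single libraries stood far out in the last pair. In 3D replicate 5 Mki67 deviated farthest downward in its group (-0.89 in log2 CPM) and Ccnd1 farthest upward (0.78). In 12W replicate 3 both deviated farthest upward (1.17 and 0.56). None of these single-group values was computed with a library left out, so the signs may rest on such libraries. Depth did not pass the test against any of the 5 genes after adjustment. The correlation of the within-group deviation with that of log2 depth, looked at after the values were seen, was 0.517 for Mki67 (permutation p = 0.0135, adjusted over 5 genes 0.0675), 0.492 for Top2a (permutation p = 0.0339, adjusted 0.0847) and 0.432 for Cdk1 (permutation p = 0.0668, adjusted 0.111). The Spearman rho with depth was 0.44, 0.346 and 0.50 in that order. Without the pair of libraries farthest in depth these r values were 0.236, 0.135 and 0.29. Its part in the correlation of Mki67 with Cdk1 was not tested.

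**Figure D4:**
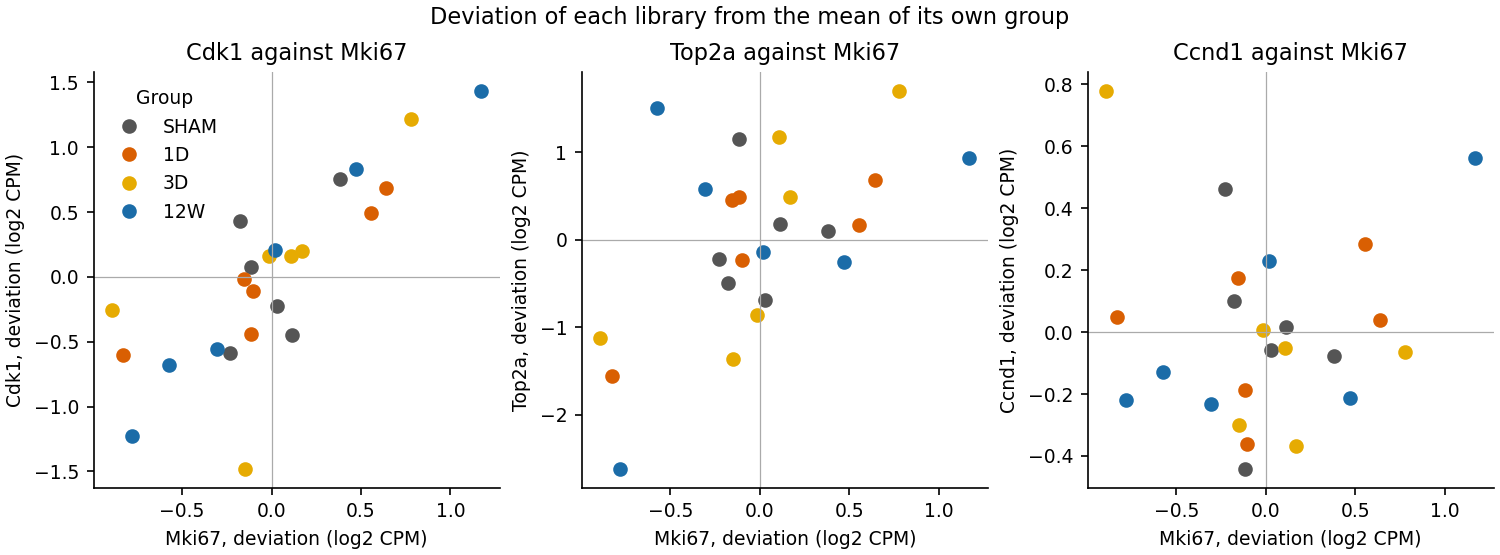
Deviation of each library from the mean of its own group, in log2 CPM, for Cdk1, Top2a and Ccnd1 (vertical axes) against Mki67 (horizontal axes), 24 libraries coloured by group. Cdk1 rises with Mki67 (r = 0.806), Top2a less so (r = 0.545), and Ccnd1 has r = 0.05.

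The promoter letters of the genes are shown beside the within-group correlations, of which only that of Mki67 with Cdk1 passed the test. Of the 5 genes, 4 matched by symbol in RefSeq's promoter table (build GRCr8), which gives 250 bases before and 50 after each gene's start, printed on the strand of the gene; Ccnd1 did not match. Capitals mark the CCAAT box known to be bound by NF-Y (CCAAT, or ATTGG on the other strand), the cell cycle homology region or CHR (TTTGAA, or TTCAAA), which is known from human and mouse work to be bound by the MuvB complexes that time mitotic genes, and an E2F core (TTGGCGC or TTCGCGC, both strands searched).
Mki67, chr1:199952544-199952843, minus strand: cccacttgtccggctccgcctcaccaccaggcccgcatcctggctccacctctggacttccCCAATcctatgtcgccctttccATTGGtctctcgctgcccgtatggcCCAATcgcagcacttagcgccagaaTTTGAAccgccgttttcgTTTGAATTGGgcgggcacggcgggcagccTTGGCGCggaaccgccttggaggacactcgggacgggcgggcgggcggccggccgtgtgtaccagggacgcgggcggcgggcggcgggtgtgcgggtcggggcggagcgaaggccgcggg
Cdk1, chr20:19265043-19265342, plus strand: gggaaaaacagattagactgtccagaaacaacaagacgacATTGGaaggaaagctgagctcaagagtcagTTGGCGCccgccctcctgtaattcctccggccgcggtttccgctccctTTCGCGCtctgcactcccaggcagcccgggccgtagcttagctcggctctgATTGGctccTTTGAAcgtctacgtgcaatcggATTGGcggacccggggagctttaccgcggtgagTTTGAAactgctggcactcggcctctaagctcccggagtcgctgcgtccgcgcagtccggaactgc
Top2a, chr10:84473044-84473343, minus strand: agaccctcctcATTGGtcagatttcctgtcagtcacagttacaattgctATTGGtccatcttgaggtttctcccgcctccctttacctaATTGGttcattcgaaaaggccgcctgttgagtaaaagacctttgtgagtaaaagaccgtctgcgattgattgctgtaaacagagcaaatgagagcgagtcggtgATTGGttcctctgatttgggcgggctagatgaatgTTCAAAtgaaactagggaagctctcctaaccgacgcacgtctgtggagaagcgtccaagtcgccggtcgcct
Pcna, chr3:139955771-139956070, minus strand: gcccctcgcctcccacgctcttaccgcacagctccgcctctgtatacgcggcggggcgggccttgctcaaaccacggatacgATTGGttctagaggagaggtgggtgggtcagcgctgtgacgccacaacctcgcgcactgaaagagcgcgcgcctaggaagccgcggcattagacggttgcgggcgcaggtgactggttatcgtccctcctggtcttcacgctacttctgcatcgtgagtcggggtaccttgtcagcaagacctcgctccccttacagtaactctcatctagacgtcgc

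The window of Mki67 held 4 CCAAT boxes, 2 CHR letters and 1 E2F core, with the second CHR sharing its last base with a CCAAT box. That of Cdk1 held 3 CCAAT boxes, 2 CHR letters and 2 E2F cores, and that of Top2a 4 CCAAT boxes, 1 CHR and 0 E2F cores. The window of Pcna held 1 CCAAT box, with 0 copies of the CHR letters and 0 of these E2F letters. Among all 33469 windows of 300 bases in the table, 37.5% held a CCAAT box, 18.3% the CHR letters, 7.41% both of these and 3.66% an E2F core. These are matches of letters and a description of the windows, and their part in the correlations was not tested.

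Over all 24 libraries, with the differences between groups kept, 9 other tested genes had a higher Pearson r of log2 CPM with Mki67 than Cdk1 did (r = 0.823), and 112 had a higher one than Top2a (r = 0.59). The gene most like Mki67 was ENSRNOG00000003388 (r = 0.895), whose log2 fold change was 0.97 at 1 day against sham (edgeR adjusted p = 0.185) and -1.44 at 3 days against 1 day (edgeR adjusted p = 0.151). The gene most like Ccnd1 was ENSRNOG00000042980 (r = 0.883), with a mean of 131.6 ± 26.2 CPM in sham and 29.3 ± 9.17 CPM at 12 weeks (SD, n = 6), which is -2.16 on the log2 scale (edgeR adjusted p = 1.16e-05). The count table pairs neither ID with a name. Libraries, depth and scaling are shared by both genes of each such pair, so these values are descriptions.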

How the data were processed

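The authors deposited 1 table of raw counts per gene, labelled as protein-coding, with 1 column per library. Depth, CPM and shares of tested genes are therefore taken over the genes of that table. The submitters' processing notes list the build mRatBN7.2 and the tools featureCounts 2.0.6, STAR 2.7.11a and FastQC 0.12.1. How strand and multi-mapping reads were handled, and from which annotation, is not given in the sources used here, and overlapping or near-identical genes may share reads. Per the labels' protocols, total RNA was depleted of ribosomal RNA and sequenced as strand-specific paired ends. The labels do not state that libraries are from separate rats, and the spread behind the p-values may be partly technical.

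The table held 26166 lines for 23098 IDs, and each ID was used once. The counts were fitted in R 4.3.3 with edgeR 4.0.16 (filterByExpr by group, TMM factors, 1 model of group means over 24 libraries without covariates, quasi-likelihood F test, two-sided). P-values were adjusted by Benjamini-Hochberg over all 15065 genes tested, and standard errors and 95% intervals were taken from the F statistic of each contrast. Depth lay between 15002476 and 70340174 counts, and Cdk1 had as few as 2 counts, in the shallowest library. It had 3 counts in 3D replicate 1, at a depth of 42917080. All 60 pairs of replicates differed by more than sampling noise (chi-square per degree of freedom of 12.9 or more). Correlations between members used deviations of log2 CPM (prior count 2) from group means, and 100000 permutations within groups. The steps were tested on simulated data.

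The members, tests and lists were chosen with earlier results of these data known. Alternatives used DESeq2 1.42.0, limma-voom with sample quality weights (limma 3.58.1), other filters and scaling, thinning, a replicate block and leaving out libraries. The block had no standing in the design: same-numbered libraries of different groups had deviations correlated between -0.178 and 0.151. The gene table used for names held 0 Ensembl IDs, so lists of other cell cycle genes and of cell type markers, fixed by symbol, were not run, and the tissue was not checked against its markers. Named genes were the 5 members and the IDs most correlated with Mki67 and with Ccnd1.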

Additional observations from a re-analysis of the deposited data

Results flagged for a closer look

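In 4 of 20 sets of 6 libraries (5 genes in 4 groups) 1 library stood apart from the rest by Dixon's criterion, which flags about 1 set in 20 by chance. SHAM replicate 2 was the highest of its group for Top2a, at 7.68 CPM, and for Pcna, at 24.4 CPM. For Pcna, 3D replicate 3 stood above its group at 20.0 CPM, though still below every sham library. For Ccnd1, 3D replicate 5 stood at 18.2 CPM, and the 3 day difference from sham was called only without it in the edgeR fit with the default filter, or without SHAM replicate 2 or 12W replicate 3.

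The 12 week and early SCI groups differed by direct test (edgeR) in Pcna and Ccnd1. The log2 fold change of 12 weeks against 1 day was 0.49 for Pcna (adjusted p = 0.000267) and -0.86 for Ccnd1 (adjusted p = 0.000793). Against 3 days it was 0.40 for Pcna (adjusted p = 0.00175) and -1.04 for Ccnd1 (adjusted p = 0.000155). With no sham group at each time, these tests compare times after injury and do not separate the injury from the passage of time.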

How the results depend on the processing

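The calls of Pcna and of Ccnd1 at 1 day and 12 weeks, and of both at 12 weeks against 1 and 3 days, kept their direction and side of the threshold under every alternative run. The 3 day log2 fold change of Ccnd1 was called with DESeq2 (-0.49), limma-voom (-0.61), at least 1 CPM in at least 6 libraries (-0.49, a filter that removed Cdk1) and without the 3 least correlated libraries, an alternative chosen after seeing the data (-0.68); leaving out 1 library gave -0.68 to -0.39. No other call changed. Uncalled values changed sign as follows. At 12 weeks against sham, limma-voom gave -0.16 for Mki67, -0.14 for Top2a and -0.0387 for Pcna, thinning gave -0.0599 for Mki67, and without the 3 libraries Mki67 was -0.15 and Pcna -0.0105. For 12 weeks against 1 day Top2a was 0.0428 when thinned and 0.13 without the 3 libraries, which also gave -0.0698 for Mki67 at 12 weeks against 3 days and -0.00753 for Ccnd1 at 3 days against 1 day. The replicate block changed no call and gave -0.0612 for Mki67 and -0.011 for Top2a at 12 weeks against sham; same-numbered libraries share only a number. Leaving out 1 library gave Mki67 -0.26 to 0.18, Top2a -0.24 to 0.45 and Pcna -0.0143 to 0.14 at 12 weeks against sham, Top2a -0.0189 to 0.46 at 1 day against sham, Top2a -0.36 to 0.20 at 12 weeks against 1 day, Mki67 -0.0579 to 0.45 and Cdk1 -0.0194 to 0.75 at 12 weeks against 3 days, and Ccnd1 -0.00717 to 0.25 at 3 days against 1 day. Genes called between 3 days and 1 day numbered 413, against 817 with DESeq2, 953 with limma-voom, 259 with only the groups compared, 1018 without the 3 libraries and 170 to 653 without any 1. Among correlations, leaving out the pair farthest on the first gene gave -0.189 for Mki67 and Pcna, -0.226 for Mki67 and Ccnd1, -0.095 for Cdk1 and Ccnd1 and -0.161 for Pcna and Ccnd1. Leaving out 1 library gave 0.446 to 0.696 for Mki67 and Top2a, 0.405 to 0.66 for Top2a and Cdk1, -0.228 to 0.397 for Mki67 and Ccnd1, -0.223 to 0.0837 for Top2a and Ccnd1 and -0.107 to 0.309 for Pcna and Ccnd1. The cause of these changes was not tested.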
